A study of Mus musculus with 12 samples.

Results

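The genes described here are those that the deposited binding lists place with the chromatin remodeller Chd7 in both oligodendrocyte precursor cells (OPCs) and oligodendrocytes (OLs). The list holds 1792 symbols, chosen by binding alone, and 1699 of them were found in the RNA table of 14107 genes; the symbols of the other 93 matched no row. There, 12 gene names have turned into dates, so some of these genes may stand under a converted name. Listed members make up 29.8% of the 6018 genes listed as bound in OPCs and 55.1% of the 3254 listed as bound in OLs. RNA came from O4-positive cells, taken by magnetic sorting from the cortex and corpus callosum of 7-day-old mice (postnatal day 7). The 5 Chd7iKO libraries carried PDGFRaCre and Chd7flox/flox by their labels, and the 7 Control libraries, from littermates, carried Chd7flox/flox without Cre. Animals of both groups received tamoxifen under the skin at postnatal days 1 and 4, so that both groups share the floxed alleles and the drug. No group with Cre and intact Chd7 was analysed here, and an effect of Cre and one of Chd7 deletion cannot be told apart. The Pdgfra promoter is active in OPCs, and O4 marks late precursors and immature oligodendrocytes. The number of pups per library is not stated in the labels, and the p-values here reflect only variation among these libraries, part of which may be technical.

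Chd7 is an ATP-dependent remodeller that slides nucleosomes at promoters and enhancers, and it acts with Sox10 in the oligodendrocyte lineage. Precursors divide and migrate, then leave the cell cycle, pass through a premyelinating stage marked by Gpr17 and Bcas1, and wrap axons with myelin. A gene on this list was listed as bound both before and after that step. The binding list is one of gene names, without the place or strength of the sites, and the sources used here do not give the rule that tied a site to a gene.

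Promoters from RefSeq (GRCm38.p6) show the DNA at the start of 2 members with large falls, Sema3d and Gpc5, and 2 with large rises, Hmga2 and Ccng1. Each covers 250 bases before and 50 after the start, 5′ to 3′ on the gene's strand. Sema3d is at chr5:12382916-12383215 (plus strand), Gpc5 at chr14:115091965-115092264 (plus), Hmga2 at chr10:120476420-120476719 (minus) and Ccng1 at chr11:40755237-40755536 (minus). Capitals mark matches to ACAAAG or ACAATG, cores that SOX factors bind, or to CAGCTG, an E-box bound by basic helix-loop-helix factors, on either strand.
Sema3d: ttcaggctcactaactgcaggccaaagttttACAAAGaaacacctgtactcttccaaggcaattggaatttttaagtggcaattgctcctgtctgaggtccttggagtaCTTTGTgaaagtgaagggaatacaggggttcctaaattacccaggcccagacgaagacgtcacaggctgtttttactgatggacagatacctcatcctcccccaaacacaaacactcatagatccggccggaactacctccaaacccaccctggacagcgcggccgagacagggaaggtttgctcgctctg
Gpc5: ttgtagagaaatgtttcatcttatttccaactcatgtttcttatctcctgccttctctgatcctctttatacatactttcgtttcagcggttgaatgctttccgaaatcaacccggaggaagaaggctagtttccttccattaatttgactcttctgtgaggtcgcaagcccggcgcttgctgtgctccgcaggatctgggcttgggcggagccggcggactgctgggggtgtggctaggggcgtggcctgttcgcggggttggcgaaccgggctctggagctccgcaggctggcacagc
Hmga2: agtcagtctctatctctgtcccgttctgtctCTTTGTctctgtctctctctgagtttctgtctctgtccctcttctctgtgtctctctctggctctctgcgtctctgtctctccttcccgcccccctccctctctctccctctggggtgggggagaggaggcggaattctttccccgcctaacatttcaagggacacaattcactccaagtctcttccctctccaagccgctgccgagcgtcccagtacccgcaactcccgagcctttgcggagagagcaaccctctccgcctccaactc
Ccng1: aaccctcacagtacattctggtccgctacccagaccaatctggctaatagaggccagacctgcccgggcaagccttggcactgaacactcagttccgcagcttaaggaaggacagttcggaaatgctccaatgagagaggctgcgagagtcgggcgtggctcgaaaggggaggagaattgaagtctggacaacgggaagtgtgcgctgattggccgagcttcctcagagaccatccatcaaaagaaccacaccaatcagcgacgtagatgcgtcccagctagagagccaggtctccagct
Sema3d holds ACAAAG 219 bases and CTTTGT, its reverse complement, 141 bases before the start, and Hmga2 holds CTTTGT 219 bases before it. None of the 3 motifs, which do not overlap in these windows, was found in the Gpc5 or Ccng1 window. Of 32851 promoters of the same length in the table, 18.7% hold ACAAAG, 12.6% ACAATG and 16.3% CAGCTG, so such matches are common. Only 78.9% of the measured members (1340) had a promoter in the table, below the 80% needed for a comparison over the list, and none was made.

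The libraries held 30384507 to 35512310 estimated counts, and levels are given as CPM, which are counts set to the same library size with TMM factors and not divided by gene length. Signed values in parentheses are log2 fold changes of Chd7iKO over Control. The cells carried the markers of the O4-positive stage: Pdgfra had 4390 to 5124 CPM in Chd7iKO and 4998 to 5924 CPM in Control libraries, and Olig2 had 630 to 781 CPM in Chd7iKO and 725 to 1024 CPM in Control libraries. Some libraries stand apart from their labelled group. Esr1 had 138 to 171 CPM in the Chd7iKO libraries but also 81.7 CPM in Control 3 and 44.7 CPM in Control 6, against 0.532 to 1.26 CPM in the other 5 Controls. Control 6 lay between the groups over the members: on the first principal component, which held 49.5% of their variance, the Chd7iKO libraries scored 5.09 to 11.1, Control 6 scored 0.239 and the other Controls -9.09 to -4.07. Microglial and vascular markers were higher in Chd7iKO libraries: 15 of 20 microglial genes rose (summed 731 to 943 CPM in Chd7iKO and 371 to 840 CPM in Control libraries), and so did 12 of 18 endothelial genes (528 to 1145 CPM in Chd7iKO and 327 to 697 CPM in Control libraries) and 9 of 15 mural and fibroblast genes outside the list, with the most vascular signal in Chd7iKO 4 and 5. Outside the members, 1 of 15 astrocyte markers was higher and 0 lower, and of 20 neuronal markers 1 was higher and 3 lower. These marker counts can be set beside 15.7% higher and 13.8% lower over all genes. None of those microglial or endothelial genes is a member, their part in the results was not tested, and fewer cells of a type cannot be told apart from less RNA per cell in such bulk samples.

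Genes bound in both stages were more often lower than higher in Chd7iKO cells. Of 1699 members, 403 were lower (23.7%) and 219 higher (12.9%) by edgeR's quasi-likelihood test at an adjusted p of 0.05, together 36.6%. Over all 14107 genes 29.5% were called, 13.8% lower and 15.7% higher, and over the 7452 genes on none of the Chd7 lists 11.9% were lower and 17.6% higher. Thus 64.8% of the called members were lower, against 46.7% of all called genes. Genes bound in OPCs only were lower in 12.9% and higher in 13.1% of 3855, and genes bound in OLs only were lower in 14.2% and higher in 16.5% of 1101. No test was made between these lists. The changes were small: the median log2 fold change was -0.043 over the members and 0.0014 over all genes, and the median size among called members was 0.37. Only 3 members were lower and 12 higher by 2-fold or more. All Chd7iKO libraries lay below all Controls for 208 members and above them for 106, where the background over all genes is 6.32% below and 6.2% above, and over unlisted genes 5.26% below and 6.7% above.

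**Figure D1:**
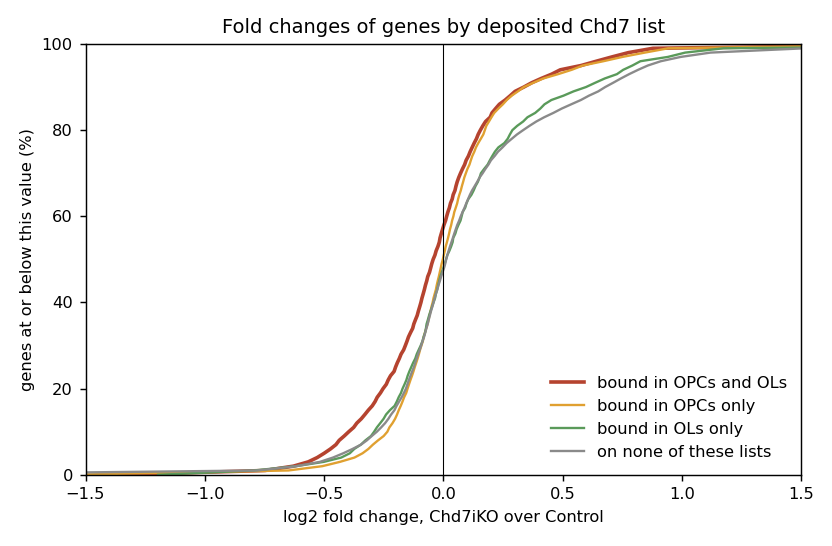
Cumulative share of genes (%) at or below each log2 fold change of Chd7iKO over Control, for genes bound by Chd7 in OPCs and OLs (1699), in OPCs only (3855), in OLs only (1101) and on none of the lists (7452). Of the genes bound in both stages 57.8% have a value below 0, against 47.5% of unlisted genes.

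Leaving out Controls 3 and 6 gave 444 lower and 219 higher members, and leaving out Chd7iKO 4 and 5 gave 209 lower and 108 higher, a loss of many calls in both directions. With the mean level of 94 markers of other cell types as a covariate, 165 members were lower and 81 higher. The shares over all genes also fell, to 4.04% lower and 4.53% higher with this covariate. Without Chd7iKO 4 and 5 they were 5.93% lower and 6.44% higher. In each of 22 alternative fits the percent of members called lower was above that of unlisted genes, by 1.72 to 3.15 times.

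Expression level is one property in which the members differ from other genes. Their median mean level was 65.1 CPM against 20.7 CPM for unlisted genes, and 71.9% lay above the median of all genes. In 10 equal bins of mean CPM, the percent called lower was above that of unlisted genes in 7 of 10. The difference was widest among genes of the highest CPM: in the top bin, from 162.6 CPM up, 39.6% of 391 members were lower and 5.37% higher, against 16.7% lower and 11.9% higher of 472 unlisted genes. In the lowest 3 bins the shares called lower were 1.79%, 6.67% and 9.18% of members and 4.85%, 6.99% and 10.5% of unlisted genes, which rest on few members and were not tested. Weighted to the members' spread over the bins, unlisted genes were lower in 14.8% and higher in 14.3%.

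**Figure D2:**
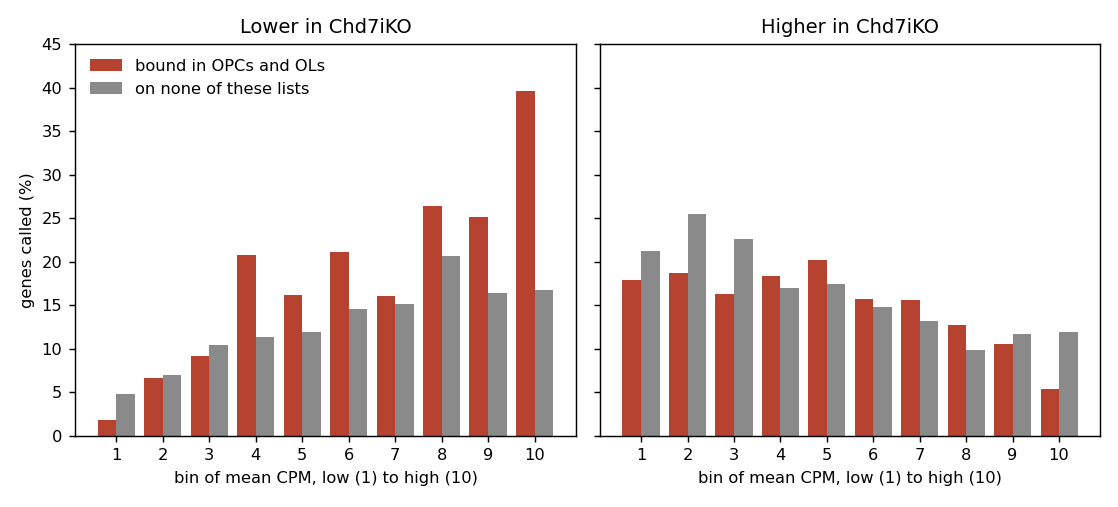
Percent of genes called lower (left) and higher (right) in Chd7iKO cells by bin of mean CPM (10 bins of equal size), for members (red) and unlisted genes (grey). In the top bin 39.6% of members were lower against 16.7% of unlisted genes, and 5.37% were higher against 11.9%.

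The members were also long genes. Their median length from start to end in RefSeq was 92.1 kb, against 22.4 kb for genes bound in OPCs only, 56.9 kb for genes bound in OLs only and 18.6 kb for unlisted genes. Members that were lower had a median of 125 kb, those that were higher 96.7 kb and those not called 82.6 kb, where the medians over all genes were 32.5 kb for lower, 24.8 kb for higher and 23.5 kb for uncalled genes. In 4 equal bins of gene length, from short to long, 18.7%, 16.5%, 20.6% and 26.6% of members were lower, against 11.7%, 10.1%, 11.4% and 16.1% of unlisted genes. Both shares were highest in the longest bin, which held 1048 members. Within the 3 top bins of expression, the shares of lower members by length bin were 28.9%, 23.2%, 28.7% and 34.8%, against 16.9%, 16.0%, 19.2% and 19.7% of unlisted genes. A long gene offers more sequence to which a site can be assigned, and the part of this in the membership of the list was not tested.

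Most members are also on the list bound by Chd8, a related remodeller. This holds for 1509 of 1699 members (88.8%) and, to a like extent, for 88.1% of genes bound by Chd7 in OPCs only. Members shared with Chd8 were lower in 24.0% and higher in 12.3%, and the 190 others were lower in 21.6% and higher in 17.4%. Lower members outnumbered higher ones in both kinds, and no test was made between the kinds. Chd7 is itself a member and had 281, 235, 258, 207 and 227 CPM in Chd7iKO libraries, against a lowest, median and highest of 179, 240 and 270 CPM in Controls (edgeR adjusted p = 0.837, log2 fold change 0.03 with SE 0.10). Its values sum over the whole gene and do not check the deletion.

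The transcription factors of the lineage fell in part. Of 17 members on that list 7 were lower, 2 higher and 8 did not pass (median log2 fold change -0.20), against 13.8% lower and 15.7% higher over all genes. Sox10, the factor that drives myelin genes and is a partner of Chd7, had 690, 798, 805, 721 and 678 CPM in Chd7iKO libraries, against 860, 975 and 1260 CPM as lowest, median and highest of the Controls. The groups did not overlap (edgeR adjusted p = 0.00321, log2 fold change -0.48, SE 0.10). Tcf7l2, a Wnt pathway factor of the premyelinating stage, had 40.9 to 49.2 CPM in Chd7iKO and 49.2 to 60.8 CPM in Control libraries (-0.30, adjusted p = 0.00400). Nkx2-2, a homeodomain factor that promotes differentiation, was lower by 0.41 on the log2 scale at an adjusted p of 0.0260, and that call was lost on leaving out any of 4 libraries (Control 4, Chd7iKO 1, 4 or 5), with adjusted p from 0.0509 to 0.0662. Olig1 had 1365 to 1795 CPM in Chd7iKO and 1707 to 2334 CPM in Control libraries and did not pass (adjusted p = 0.0648). The factors that went the other way were Creb5, a basic leucine zipper protein (34.1 to 56.5 CPM in Chd7iKO against 15.1 to 24.4 CPM in Controls), and Nfib, a nuclear factor I protein (log2 fold change 0.30). The Nfib call was lost with replicate number as a block in the fit (edgeR adjusted p = 0.0572). With the covariate the lineage list had 1 lower member and 2 higher ones, against 4.04% lower and 4.53% higher over all genes. Sox10 no longer passed there (edgeR adjusted p = 0.125, log2 fold change -0.27). Without Chd7iKO 4 and 5 the list had 3 lower, against 5.93% of all genes.

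Precursor markers on the list were lower or did not pass. Of 10 members 6 were lower and 0 higher with edgeR (unadjusted p under 0.05: 7 lower, 0 higher; DESeq2: 6 lower, 0 higher; voom: 8 lower, 0 higher), with a median of -0.25. Over all genes 13.8% were lower and 15.7% higher, and of the 13 precursor markers that are not members 7 were lower and 0 higher. C1ql1, a secreted C1q-like protein, had 104, 125, 137, 117 and 105 CPM in Chd7iKO libraries, against 180, 190 and 232 CPM as lowest, median and highest of the Controls. These groups were apart (log2 fold change -0.74, SE 0.08, edgeR adjusted p = 5.65e-05). Lhfpl3, a membrane protein, had 776 to 1050 CPM in Chd7iKO and 1118 to 1328 CPM in Control libraries, and Gpr37l1, an orphan receptor, had 394 to 451 CPM in Chd7iKO and 514 to 645 CPM in Control libraries. Cspg4, the NG2 proteoglycan, which is also a mural cell marker, had 1074 to 1482 CPM in Chd7iKO and 1063 to 1710 CPM in Control libraries and did not pass (adjusted p = 0.127). With the covariate, as without Chd7iKO 4 and 5, 3 members were lower, against 4.04% and 5.93% of all genes in these fits.

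Genes of the committed and newly formed oligodendrocyte on the list were mostly lower. Of 19 members 14 were lower, 2 higher and 3 did not pass (median -0.33), against 13.8% lower and 15.7% higher over all genes. Neu4, a sialidase, had 72.5, 70.7, 72.4, 72.9 and 64.3 CPM in Chd7iKO libraries, against 104, 121 and 146 CPM as lowest, median and highest of the Controls. Chd7iKO libraries were all lower (log2 fold change -0.83, SE 0.08, edgeR adjusted p = 1.65e-05). Gpr17, the receptor that marks premyelinating cells, had 1253, 2039, 1885, 1883 and 1403 CPM in Chd7iKO libraries, against 2227, 3003 and 3817 CPM in Controls (-0.76, SE 0.15, adjusted p = 0.00240). No Chd7iKO library reached the Controls, although with the covariate the call was lost (adjusted p = 0.0666, log2 fold change -0.63). Fyn, a kinase of the Src family that promotes process outgrowth, had 942 to 1117 CPM in Chd7iKO and 1307 to 1614 CPM in Control libraries (-0.48). Sema5a, a transmembrane semaphorin, had 385 to 461 CPM in Chd7iKO and 597 to 767 CPM in Control libraries. With the covariate, as without Chd7iKO 4 and 5, the list had 9 lower and 0 higher members. Those fits called 4.04% and 5.93% of all genes lower, and 4.53% and 6.44% higher.

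Myelin and lipid genes on the list were lower in 6 of 9, and 0 were higher with edgeR (unadjusted: 6 lower, 0 higher; DESeq2: 6 lower, 0 higher; voom: 6 lower, 1 higher), with a median of -0.53. Over all genes 13.8% were lower and 15.7% higher. Of the 33 myelin and lipid genes that are not members 6 were lower and 4 higher, with a median of -0.10. Arsb, a lysosomal arylsulfatase, had 378, 374, 376, 366 and 331 CPM in Chd7iKO libraries, against 561, 632 and 642 CPM as lowest, median and highest of the Controls. The groups did not overlap (-0.75, SE 0.05, edgeR adjusted p = 3.70e-06). Ugt8a, which makes the myelin lipid galactosylceramide, had 181 to 229 CPM in Chd7iKO and 302 to 384 CPM in Control libraries, and Pllp, plasmolipin, a myelin membrane protein, had 219 to 284 CPM in Chd7iKO and 342 to 420 CPM in Control libraries. Bcas1, which marks cells that start to myelinate, had 802 to 901 CPM in Chd7iKO and 1135 to 1402 CPM in Control libraries. Mbp, the major cytosolic myelin protein, had 1392, 1992, 1768, 2376 and 2366 CPM in Chd7iKO libraries, against 1846, 1897 and 2805 CPM in Controls. These overlap, and Mbp did not pass (log2 fold change -0.06, SE 0.14, adjusted p = 0.797).

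Adhesion and extracellular matrix held the most members of any list and the most falls. Of 27 members 19 were lower and 2 higher (median -0.36), against 13.8% lower and 15.7% higher over all genes. Of the 30 genes of that list that are not members 14 were lower and 4 higher. Edil3, a secreted matrix protein that binds integrins, had 82.5, 80.1, 75.1, 84.4 and 67.0 CPM in Chd7iKO libraries, against 140, 198 and 216 CPM as lowest, median and highest of the Controls. The groups were far apart (-1.29, SE 0.10, edgeR adjusted p = 7.63e-06), and the rule for the largest falls required groups without overlap. Gpc5, a glypican that carries heparan sulfate, had 47.1 to 63.3 CPM in Chd7iKO and 86.0 to 115 CPM in Control libraries (-0.97). Cadm2, an immunoglobulin-type adhesion protein, had 357 to 413 CPM in Chd7iKO and 477 to 570 CPM in Control libraries (-0.47), and Lrrn1, a leucine-rich repeat membrane protein, had 191 to 225 CPM in Chd7iKO and 272 to 376 CPM in Control libraries (-0.64). The 2 higher members, named after their values were seen, were Chl1 (0.27) and the integrin subunit Itga1 (1.10, 23.5 to 47.1 CPM in Chd7iKO and 7.43 to 24.6 CPM in Control libraries, overlapping). Without Chd7iKO 4 and 5, 10 were lower and 1 higher, and with the covariate 8 and 0. The first fit called 5.93% of all genes lower and 6.44% higher, and the second 4.04% and 4.53%.

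Channels and transmitter receptors, through which precursors sense axons, were lower or did not pass apart from 1. Of 20 members 11 were lower and 1 higher (median -0.30), against 13.8% lower and 15.7% higher over all genes. Of the 22 genes of that list that are not members 8 were lower and 0 higher. Kcnd2, a voltage-gated potassium channel, had 180, 169, 183, 165 and 163 CPM in Chd7iKO libraries, against 231, 266 and 275 CPM as lowest, median and highest of the Controls. There was no overlap (-0.57, SE 0.06, edgeR adjusted p = 3.27e-05). Grin3a, an NMDA receptor subunit, had 180 to 206 CPM in Chd7iKO and 227 to 287 CPM in Control libraries (-0.36). Gria2, an AMPA receptor subunit, had 520 to 688 CPM in Chd7iKO and 672 to 870 CPM in Control libraries (-0.35, adjusted p = 0.00475). With the covariate 3 were lower, against 4.04% of all genes, and Gria2 no longer passed (edgeR adjusted p = 0.0836, log2 fold change -0.30). Without Chd7iKO 4 and 5 the number was 6, against 5.93% of all genes, and Gria2 was at an edgeR adjusted p of 0.0519.

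**Figure D3:**
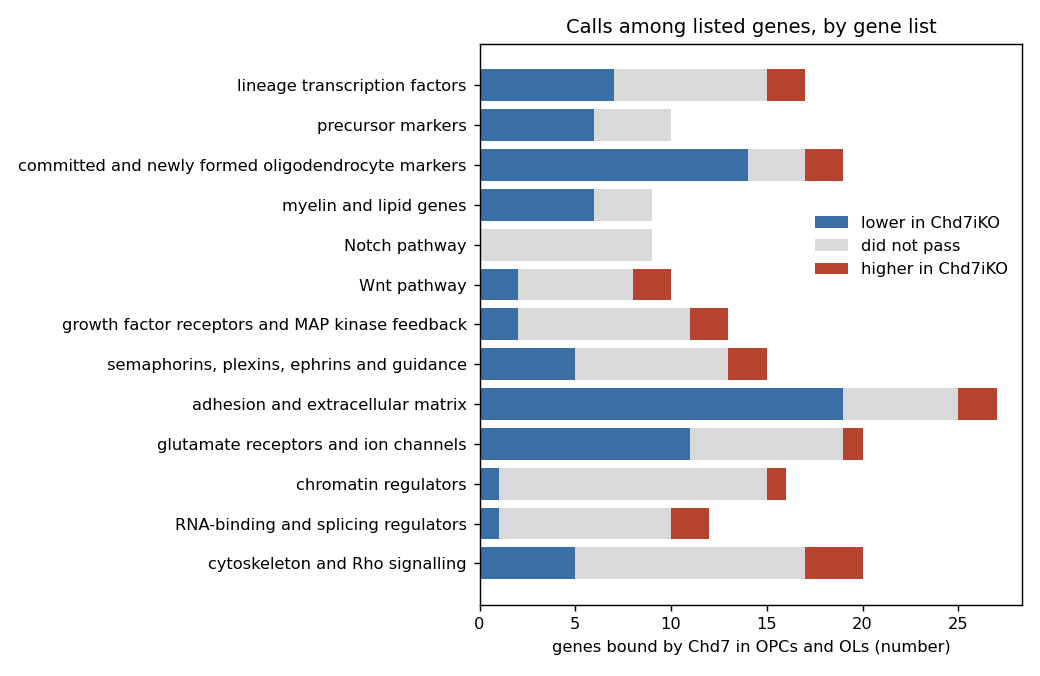
Number of members lower in Chd7iKO cells (blue), not past the test (grey) and higher (red), for the 13 gene lists with 8 or more members. Falls are most numerous in adhesion and matrix (19 of 27), committed oligodendrocyte markers (14 of 19) and receptors and channels (11 of 20), while Notch members (9) have none in either direction. The lists overlap: Tnr counts as lower in adhesion and committed markers, and Bcas1 in committed markers and myelin genes.

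Among guidance cues, of 15 members 5 were lower and 2 higher (median -0.11), against 13.8% lower and 15.7% higher over all genes. Without Chd7iKO 4 and 5, and with the covariate, 3 were lower and 0 higher. Those fits called 5.93% and 4.04% of all genes lower, and 6.44% and 4.53% higher. Sema3d, a secreted semaphorin whose promoter is shown above, had 101, 93.5, 88.7, 97.4 and 91.7 CPM in Chd7iKO libraries, against 186, 254 and 273 CPM as lowest, median and highest of the Controls. This is the largest fall of the members named by size, a rule that required groups without overlap. The groups were far apart (-1.36, SE 0.08, edgeR adjusted p = 2.24e-06). Epha3, an ephrin receptor, had 1.94 to 2.99 CPM in Chd7iKO and 2.21 to 4.92 CPM in Control libraries, which overlap (-0.84, adjusted p = 0.00580). Nrp1, a co-receptor for class 3 semaphorins that endothelium also carries, had 35.5 to 66.4 CPM in Chd7iKO and 24.8 to 46.3 CPM in Control libraries (0.80, adjusted p = 0.00641; 0.0881 without Chd7iKO 4 and 5; 0.200 with the covariate).

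In the signalling pathways that follow, the share called can be set beside 29.5% over all genes. Of 9 Notch members 0 were lower and 0 higher with edgeR (unadjusted: 1 lower, 0 higher; DESeq2: 0 and 0; voom: 1 lower, 2 higher). Of 10 Wnt members 2 were lower and 2 higher: Tcf7l2, Rnf43 (a ligase that removes Frizzled receptors, 28.4 to 37.2 CPM in Chd7iKO and 31.5 to 51.5 CPM in Control libraries, -0.45; adjusted p = 0.133 without Chd7iKO 4 and 5, and 0.373 with the covariate, where the log2 fold change was -0.18), Lgr5 (an R-spondin receptor, 8.65 to 12.3 CPM in Chd7iKO and 5.22 to 8.51 CPM in Control libraries, 0.61, adjusted p = 0.0581 with the covariate) and Lef1 (a Wnt transcription factor, 3.63 to 8.48 CPM in Chd7iKO and 2.74 to 5.58 CPM in Control libraries, 0.72, lost without Chd7iKO 4 or 5 with adjusted p up to 0.0657, and 0.202 without both). Of 13 growth factor and MAP kinase members 2 were lower and 2 higher, with Erbb4, a neuregulin receptor, at 164 to 226 CPM in Chd7iKO and 211 to 317 CPM in Control libraries (-0.60, adjusted p = 0.00109) and Insr, the insulin receptor, at 138 to 169 CPM in Chd7iKO and 109 to 133 CPM in Control libraries (0.34, adjusted p = 0.00193). Spred1 and Spred2, related brakes of Ras signalling, moved in opposite directions (-0.23 and 0.15), the second lost without Chd7iKO 1 or 4. Of 3 BMP and TGF-beta members only Tgfb2 changed, at 39.6 to 63.5 CPM in Chd7iKO and 29.7 to 44.8 CPM in Control libraries (0.48, adjusted p = 0.0124; 0.0536 without Chd7iKO 4 and 5; 0.136 with the covariate).

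Chromatin regulators, RNA-binding proteins and cytoskeletal genes can be read against the same 29.5%. Of 16 chromatin regulators 1 was lower, the deacetylase Hdac11 (22.9 to 28.2 CPM in Chd7iKO and 28.4 to 44.1 CPM in Control libraries, -0.47, adjusted p = 0.00305, 0.0677 with the covariate), and 1 was higher, the methylcytosine oxidase Tet3 (0.26, adjusted p = 0.0381, lost in 8 of the 12 fits that leave out 1 library). Of 12 RNA-binding members 1 was lower (Samd4b, -0.28) and 2 higher (Tardbp, 0.21, and Celf2, 0.17), with Samd4b lost in 4 and Celf2 in 3 of those fits. The covariate fit called 4.04% of all genes lower and 4.53% higher, and the fit without Chd7iKO 4 and 5 called 5.93% and 6.44%. Of 20 cytoskeletal members 5 were lower and 3 higher, and in both of those fits the numbers were 2 and 0. Among these, Wasf1, which builds branched actin at the cell edge, had 161 to 196 CPM in Chd7iKO and 230 to 303 CPM in Control libraries (-0.59), and Mapt, the tau protein, had 247 to 268 CPM in Chd7iKO and 269 to 330 CPM in Control libraries (-0.20; adjusted p = 0.0613 without Chd7iKO 4 and 5, and 0.254 with the covariate).

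Members that rose most are shown beside those that fell most, both chosen among called members whose groups do not overlap. Hmga2, an architectural chromatin protein that is high in dividing stem cells, had 14.4, 14.6, 14.7, 13.5 and 19.4 CPM in Chd7iKO libraries, against 3.49, 4.13 and 8.12 CPM as lowest, median and highest of the Controls. The groups were apart (1.65, SE 0.20, edgeR adjusted p = 1.07e-04), and the highest Controls were 3 and 6. Pvt1, a long noncoding RNA beside Myc, had 29.2 to 38.4 CPM in Chd7iKO and 9.36 to 16.5 CPM in Control libraries (1.41, SE 0.15), again with Controls 3 and 6 on top. Podn, a small leucine-rich proteoglycan, had 5.29 to 6.17 CPM in Chd7iKO and 1.80 to 3.29 CPM in Control libraries, and Rhbdf2, an inactive rhomboid protein that carries the sheddase Adam17 to the surface, had 4.58 to 6.20 CPM in Chd7iKO and 1.72 to 3.75 CPM in Control libraries. Ano3 (1.19), Cpne8 (1.10), Creb5 (1.05), Lrrk1 (1.03) and Prr5l (0.93) complete the 10 largest rises. Without Controls 3 and 6 the rises of Hmga2, Pvt1 and Ccng1 were 1.97, 1.63 and 1.46. With the covariate they were 1.47, 1.37 and 1.22. Lrrk1 was then 0.58, Prr5l 0.63, Cpne8 0.87 and Rhbdf2 0.88 (1.20 without the covariate), while Creb5 was 0.98, Podn 1.12 and Ano3 1.19. All 10 rises kept their calls with the covariate. The falls beside them include Dpyd, the first enzyme of pyrimidine breakdown (13.4 to 16.0 CPM in Chd7iKO and 25.2 to 37.4 CPM in Control libraries), the syntrophin Sntg1 (-0.95), the channel subunit Kcnab1 (-0.93), Lace1 (-0.88), Galnt13, which starts O-linked sugars (-0.79), and the granule protein Chgb (-0.77).

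**Figure D4:**
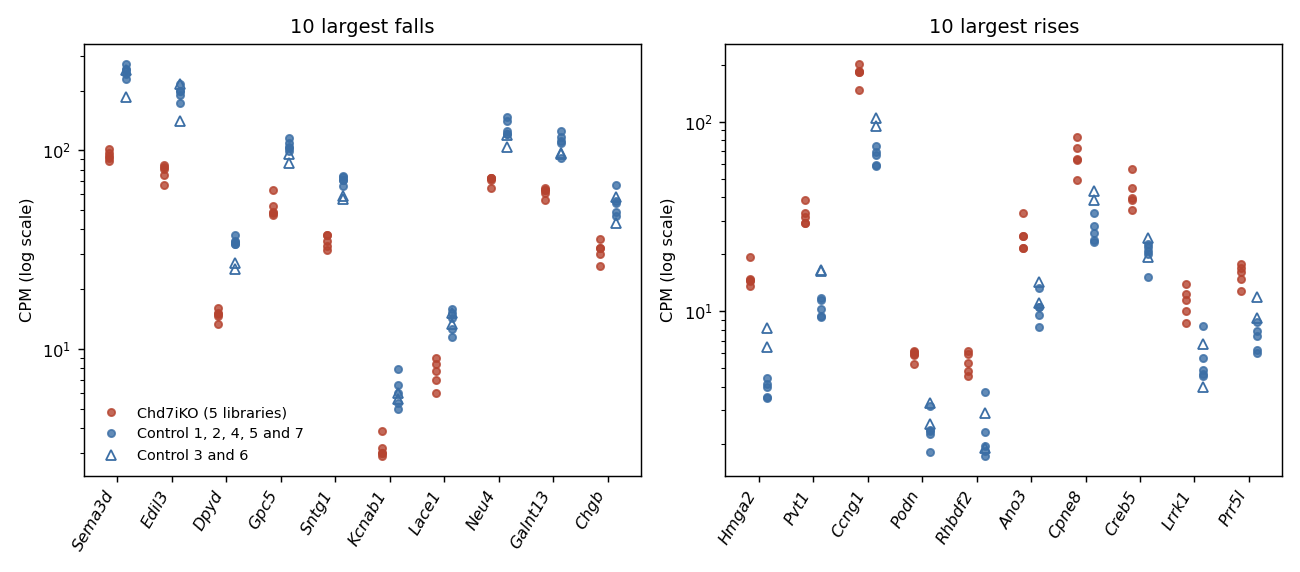
CPM (log axis) in every library for the 10 members with the largest falls (left) and the 10 with the largest rises (right), for Chd7iKO libraries (red) and Controls (blue, with Controls 3 and 6 as open triangles). The groups are apart for each gene by the rule that chose them, and for Hmga2, Pvt1 and Ccng1 Controls 3 and 6 are the Controls nearest to Chd7iKO.

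Few genes of the p53 response and the cell cycle are members, and those measured rose, where 15.7% of all genes were higher and 13.8% lower with edgeR. The p53 list had 3 members, 3 higher and 0 lower by each of edgeR, DESeq2 and voom and at an unadjusted p under 0.05, beside 22 of 34 higher among its genes that are not members. Ccng1, cyclin G1, a direct target of p53, had 146, 182, 185, 182 and 202 CPM in Chd7iKO libraries, against 58.6, 69.2 and 105 CPM as lowest, median and highest of the Controls. They did not overlap (1.25, SE 0.14, edgeR adjusted p = 7.11e-05), which the rule for the largest rises required. Polk, a polymerase that copies past damage, had 16.8 to 19.1 CPM in Chd7iKO and 8.12 to 12.4 CPM in Control libraries (0.86), and Ercc5, a nuclease of excision repair, 45.2 to 50.1 CPM in Chd7iKO and 34.1 to 43.6 CPM in Control libraries (0.35). Trp53, the gene of p53 itself, is a member and had 89.5 to 91.6 CPM in Chd7iKO and 58.2 to 80.3 CPM in Control libraries (0.48, SE 0.07, adjusted p = 3.78e-04). The 3 cell cycle members were Ccnd3, cyclin D3 (114 to 128 CPM in Chd7iKO and 75.0 to 90.1 CPM in Control libraries, 0.56, adjusted p = 2.03e-05), Gins2, a part of the replicative helicase (0.73, adjusted p = 0.0242), and Cdk6 (0.38, adjusted p = 0.0494). Gins2 and Cdk6 overlapped between groups and lost their calls on leaving out single libraries, in 4 and 10 of 12 fits, and 49 of 56 cell cycle genes that are not members were higher.

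The members took a smaller share of the counts in Chd7iKO than in Control libraries on average. The members' share of all counts was 22.2%, 21.6%, 21.4%, 21.1% and 21.1% in the Chd7iKO libraries 1 to 5, against 22.0% in Control 6, 22.6% in Control 3 and 22.9% to 23.3% in the other Controls. The groups overlapped only through Control 6, with means of 21.5 ± 0.448% in Chd7iKO and 22.9 ± 0.457% in Control libraries (SD, n = 5 and 7). Summed over the members, mean CPM was 212215 in Chd7iKO and 231268 in Control libraries. Gpr17 averaged 1692 ± 343 CPM in Chd7iKO against 2868 ± 546 CPM in Control libraries. Sulf2, an enzyme that trims heparan sulfate outside the cell, had 920 to 1153 CPM in Chd7iKO and 1284 to 1707 CPM in Control libraries (-0.54, adjusted p = 1.54e-04), and Cntn1, an adhesion protein of the contactin family, 1338 to 1458 CPM in Chd7iKO and 1461 to 1895 CPM in Control libraries (-0.29; adjusted p = 0.0555 without Chd7iKO 4 and 5, and 0.173 with the covariate). Ptprz1 and Sdc3, a receptor phosphatase and a syndecan with some of the highest CPM on the list, were both lower by 0.19 on the log2 scale, at adjusted p of 0.0467 and 0.0383, and lost their calls in 9 and 8 of the 12 fits that leave out 1 library, and with library totals in place of TMM. In the other direction Il1rap, an accessory chain of the interleukin-1 receptor, named after its values were seen, had 400 to 448 CPM in Chd7iKO and 220 to 296 CPM in Control libraries (0.79, adjusted p = 1.65e-05).

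**Figure D5:**
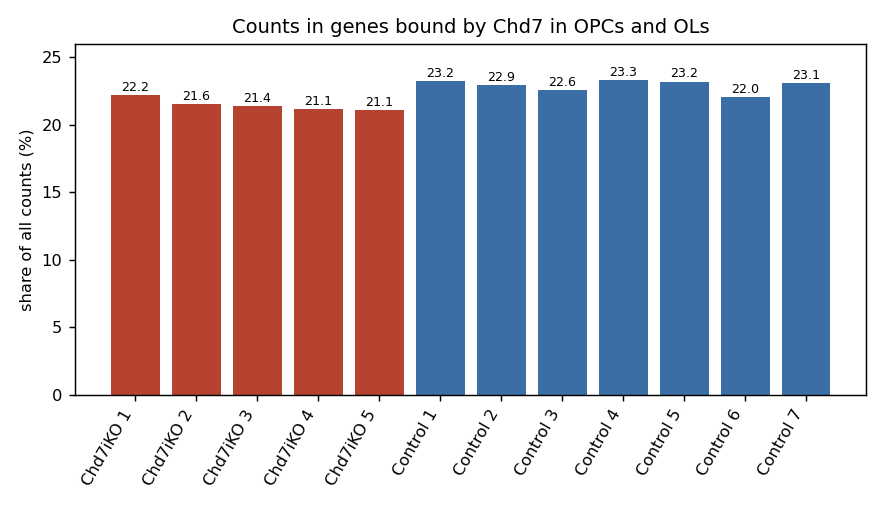
Percent of each library's counts that fall in the members, from 0, for the 5 Chd7iKO libraries (red, left) and the 7 Controls (blue, right). Chd7iKO libraries hold 21.1% to 22.2% and Controls 22.0% to 23.3%, with Control 6 the one Control within the Chd7iKO range.

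Of the 35 members on the deposited autism risk list 7 were lower and 3 higher (28.6% called), close to the background of 29.5%. Serinc5, a membrane protein of the Serinc family, had 393 to 497 CPM in Chd7iKO and 498 to 719 CPM in Control libraries (-0.55, edgeR adjusted p = 5.26e-04), and Tbc1d23, a trafficking protein, 72.2 to 81.2 CPM in Chd7iKO and 89.7 to 104 CPM in Control libraries (-0.34). Nav2, a microtubule-associated navigator, was higher, with 134 to 174 CPM in Chd7iKO and 93.9 to 131 CPM in Control libraries (0.46). Cdh4, R-cadherin, is among the members shared with Chd8 with the smallest adjusted p and had 147, 127, 137, 131 and 142 CPM in Chd7iKO libraries, against 74.3, 78.2 and 90.4 CPM as lowest, median and highest of the Controls. Its groups were far apart (0.77, SE 0.06, adjusted p = 5.80e-06).

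None of 20 microglial, 18 endothelial or 22 interferon-stimulated genes measured is a member. The edgeR calls that follow can be set beside 13.8% lower and 15.7% higher over all genes. Of 18 astrocyte markers measured 3 are members, Gfap among them; none of these 3 passed with edgeR, DESeq2 or voom or had an unadjusted p under 0.05, and Gfap had 330 to 646 CPM in Chd7iKO and 375 to 729 CPM in Control libraries. Of 22 neuronal markers measured 2 are members, of which Snap25 was lower (-0.29, adjusted p = 0.00475; 0.0580 without Chd7iKO 4 and 5; 0.143 with the covariate), and neither apoptosis member passed by any of these measures. Nr4a1, the 1 immediate early gene that is a member, was higher (182 to 297 CPM in Chd7iKO and 112 to 205 CPM in Control libraries, adjusted p = 0.0166; 0.0562 without Chd7iKO 4 and 5; 0.103 with the covariate).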

How the data were processed

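RNA was sequenced from 12 libraries with a stranded mRNA kit, per the labels' protocols; mm10, featureCounts, TopHat2, Bowtie and edgeR are named in the submitters' processing notes, without roles or versions. The authors deposited estimated counts per gene for 14107 genes, of which 1.76% of values were not whole; 9 members have such a value, and reads shared with near-identical copies are uncertain there. The authors also deposited lists of bound genes and their own p-values and log2 fold changes, by which 370 members were lower and 209 higher. Groups come from the titles, and no batch is labelled.

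Counts were rounded and tested with edgeR 4.0.16 (R 4.3.3; TMM, quasi-likelihood F-test, two-sided, Benjamini-Hochberg over 14107 genes, threshold 0.05). edgeR's filter removed 0 genes. SE and intervals come from that fit, and log2 CPM uses a prior count of 2. Members were matched by symbol without regard to case, and all had a RefSeq gene; coordinates are GRCm38.p6. Printed promoters are those of the members with the largest falls and rises that have a single RefSeq promoter within 25 bases of the gene's start, a limit set after the values were seen. Motifs were searched as given. No pair of libraries agreed within sampling noise (31 pairs, chi-square per degree of freedom 9.14 or more), so each counts as 1 replicate.

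Members and gene lists were chosen with earlier results of these data known. The genes named are the 10 largest rises and falls among called members of at least 1 CPM on average whose groups do not overlap; Chd7 and Chd8; up to 4 called members per gene list, per autism list and per list shared with Chd8, by adjusted p; the 5 called members of highest level; and fixed lineage genes and Trp53; some genes that this rule selects are not reported here. Alternatives were other scalings and filters, DESeq2 1.42.0, limma 3.58.1 voom, a replicate block, a marker covariate and leaving libraries out. The code was tested on simulated data with 50 planted changes of each size. It recovered 34% of 1.25-fold, 64% of 1.5-fold, 92% of 2-fold and 100% of 4-fold changes. Small changes can thus be missed in genes that were not called. For genes of high count, counting error is small beside the spread between libraries (biological coefficient of variation 14.7%). For genes of few counts, such as those of the lowest bin of CPM, it is not small (lowest mean count of any gene 20.75).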

Additional observations from a re-analysis of the deposited data

Results flagged for a closer look

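Single libraries stood far from the rest of their group for 11 of 164 gene and group pairs checked, and chance gives such a gap in about 1 in 20 groups. In Chd7iKO 5, Neu4 (64.3 CPM) and Arsb (331 CPM) were lower than in the other Chd7iKO libraries, and Hmga2 (19.4 CPM) was higher. In Chd7iKO 1, Erbb4 (226 CPM), Cadm2 (413 CPM), Tet3 (215 CPM) and Trp53 (91.6 CPM) were higher than in the other Chd7iKO libraries. In Chd7iKO 3, Kcnab1 (3.86 CPM) was higher than in the others of its group. Control 3 was lower in Epha3 (2.21 CPM) and higher in Trp53 (80.3 CPM) than the other Controls, and Control 7 was higher in Mbp (2805 CPM). The other Chd7iKO libraries had 89.5 to 90.0 CPM of Trp53, so that a small gap stands out in that group.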

How the results depend on the processing

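Lower members outnumbered higher ones in each fit. Of the members, 203 lower and 105 higher ones (308) were called in each of 14 fits that leave libraries out. Over all genes, calls were 4156; they were 6462 with voom, 1209 with the covariate, 1745 without Chd7iKO 4 and 5, and 2692 to 4610 on leaving out 1 library (lowest without Chd7iKO 5). Lower members (403) were 165 with the covariate, 209 without Chd7iKO 4 and 5, and 296 to 443 on leaving out 1 library; higher members (219) were 81, 108 and 152 to 242. Fewer samples enter each fit that leaves libraries out, and the cause of the changes in calls was not tested. The median of -0.043 was -0.012 with library totals and -0.055 to -0.028 on leaving out 1 library. With library totals 345 were lower and 253 higher. Numbers 1 to 5 are shared by both groups, and whether they mark pairs was not settled here. Deviations from the group mean correlated at 0.38 for number 1, and at -0.12, 0.08, -0.13 and -0.18 for numbers 2 to 5. With the replicate block, over 10 libraries, 469 members were lower and 236 higher, with 4806 called over all genes and 574 members called in both fits. Olig1 passed with DESeq2, voom and the block, while Nfib, Lef1, Spred2 and Sdc3 lost their calls with the block. Of 76 named genes called, 66 kept their call on leaving out each library; 20 lost it without Chd7iKO 4 and 5, 3 without Controls 3 and 6, and 25 with the covariate. Leaving out members also listed for a single stage removed 0 genes. The column of all genes bound in OPCs holds 1791 of the 1792 listed members, so leaving those out was not run.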

Other observations

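The X chromosome held 8 members with a RefSeq gene (0.471%), against 1.27% of genes bound by Chd7 in OPCs only, 2.36% of genes bound in OLs only and 5.74% of unlisted genes (425). The members comprise 1680 protein-coding genes and 19 long noncoding RNAs.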
